A study of Mus musculus with 3 samples.

Results

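The 30 Klf, Sp and Egr genes of the mouse encode related zinc finger transcription factors, and they were examined here as possible targets of the nuclear receptor NR2F2 in the fetal testis. A gene was taken as bound when it was the nearest gene of an NR2F2 peak, by the distance from the peak's nearer edge to a curated RefSeq transcription start site (TSS), or when a peak lay within 50 kb of one of its TSSs. By these rules 42 of the 10069 peaks belonged to the family, and 23 of the 30 genes (76.7%) had at least 1 of them, against 57.9% of all protein-coding genes. NR2F2 was immunoprecipitated from chromatin of whole testes of CD-1 embryos at E14.5, a fetal stage, in 2 ChIP libraries made with a COUP-TFII (NR2F2) antibody from pooled testes, and 1 input library of the same tissue was sequenced without immunoprecipitation. All libraries came from untreated embryos with no engineered allele named, so the data compare ChIP with input and not one condition with another. Whole testis holds interstitial, Sertoli, germ, endothelial and immune cells, and a peak does not say in which of them the site was bound.

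The factors of these families bind GC-rich DNA through a row of zinc fingers at their C-terminal end. Sp factors prefer the GC box, Klf factors the related CACCC box and Egr factors a GC-rich element of their own. Klf factors divide into activators, repressors that recruit CtBP and repressors that recruit Sin3, whereas the Egr genes are immediate early genes that serum response factor switches on within minutes of a stimulus. NR2F2 itself recognises the hexamer AGGTCA or GGGTCA, alone or in pairs, and COUP transcription factors have also been described at GC boxes through Sp1.

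The sequences of 5 peaks are given first, because they show which letters lay under the strongest ChIP signal of each family and under 2 of the 3 matches to the longer NR2F2 motif. The third, in the Aaas peak near Sp7, is not printed because that peak holds 105 bases of UTR. They are the plus strand of GRCm38 (the same assembly as mm10), 5′ to 3′, 300 bp each. Capitals mark the core hexamer (AGGTCA or GGGTCA, or TGACCT or TGACCC where it lies on the minus strand) and its extension to the NR2F2 motif AGAGGTCA or AGGGGTCA.
Egr2 and Ado, chr10:67549353-67549652, strongest Egr peak: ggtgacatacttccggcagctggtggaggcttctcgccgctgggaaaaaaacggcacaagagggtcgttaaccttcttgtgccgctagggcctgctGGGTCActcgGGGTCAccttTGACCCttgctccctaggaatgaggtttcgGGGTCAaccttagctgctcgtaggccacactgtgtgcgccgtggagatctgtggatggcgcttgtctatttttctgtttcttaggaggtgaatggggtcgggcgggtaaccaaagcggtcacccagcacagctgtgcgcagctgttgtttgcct
Sp2, chr11:96977841-96978140, strongest Sp peak: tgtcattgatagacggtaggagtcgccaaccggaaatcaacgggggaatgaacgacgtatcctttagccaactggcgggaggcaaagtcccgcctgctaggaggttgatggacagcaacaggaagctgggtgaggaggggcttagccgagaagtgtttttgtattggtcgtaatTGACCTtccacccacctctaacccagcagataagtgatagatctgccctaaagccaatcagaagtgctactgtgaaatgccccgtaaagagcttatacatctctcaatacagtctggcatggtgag
Klf4, chr4:55650958-55651257, strongest Klf peak: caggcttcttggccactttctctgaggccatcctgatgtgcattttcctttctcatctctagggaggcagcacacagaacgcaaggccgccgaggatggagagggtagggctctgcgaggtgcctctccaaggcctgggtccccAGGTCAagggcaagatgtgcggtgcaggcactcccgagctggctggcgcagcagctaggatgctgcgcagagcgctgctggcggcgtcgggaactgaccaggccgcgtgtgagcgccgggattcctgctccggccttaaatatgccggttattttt
Sp8, chr12:118846699-118846998, holds the NR2F2 motif: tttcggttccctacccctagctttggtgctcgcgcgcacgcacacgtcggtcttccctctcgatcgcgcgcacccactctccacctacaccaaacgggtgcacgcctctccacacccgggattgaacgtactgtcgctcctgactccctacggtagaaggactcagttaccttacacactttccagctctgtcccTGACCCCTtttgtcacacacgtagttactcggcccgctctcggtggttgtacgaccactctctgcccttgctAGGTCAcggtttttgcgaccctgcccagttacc
Klf14, chr6:30946977-30947276, holds the NR2F2 motif: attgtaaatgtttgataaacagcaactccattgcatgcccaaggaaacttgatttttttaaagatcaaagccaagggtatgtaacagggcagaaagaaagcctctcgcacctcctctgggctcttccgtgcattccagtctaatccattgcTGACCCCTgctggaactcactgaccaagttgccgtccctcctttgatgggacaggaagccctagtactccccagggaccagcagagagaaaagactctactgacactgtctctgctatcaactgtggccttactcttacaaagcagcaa

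The Egr2 peak held 4 cores. The first pair, at bases 97 to 102 and 107 to 112 of the peak, pointed the same way with 4 bases between them. The core at bases 117 to 122 lay on the opposite strand, again 4 bases further on, and the last, at bases 147 to 152, was centred 1 base from the middle of the peak. In the Klf4 peak the single core was centred 3 bases from the middle, and in the Klf14 peak the NR2F2 motif was centred 5 bases from it. The Sp8 motif was 49.0 bases away and the single Sp2 core 27 bases away. A match of letters is a description of the sequence and not a measured site.

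Counts at the peaks summed to 73251 in the input library, 426784 in the first ChIP library (replicate 1) and 364261 in the second (replicate 2), sums that are not sequencing depths. The peaks had been called on the merged reads of the same ChIP libraries, so every peak had been selected for a high ChIP count. At the 42 family peaks the input held 1 to 15 counts with a median of 6.5, replicate 1 held 13 to 236 with a median of 43.5, and replicate 2 held 12 to 198 with a median of 32.0. Both ChIP counts exceeded the input count at 42 of 42 peaks, as they did at 10059 of all 10069. The low input counts limit the precision of every ratio below.

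**Figure D1:**
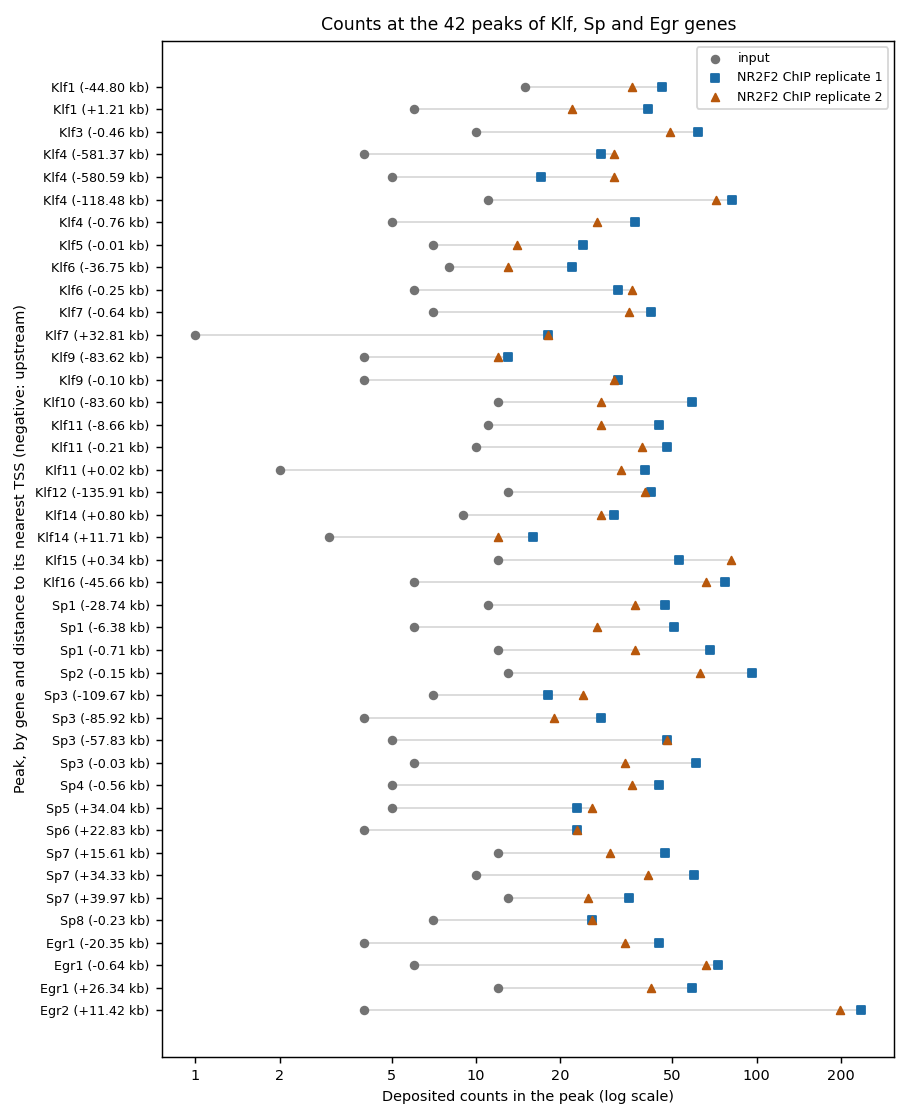
Deposited counts in the input (grey circles), NR2F2 ChIP replicate 1 (blue squares) and NR2F2 ChIP replicate 2 (orange triangles) at each of the 42 peaks, on a log axis. Each peak is named by 1 gene and the distance to that gene's nearest TSS in kb, negative upstream. The Egr2 peak stands alone at the right with 236 and 198 ChIP counts over 4 input counts, and no ChIP point lies at or left of its input point.

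How many of these genes carried a peak was asked first. The nearest gene of a peak was a family member for 32 peaks, which named 19 of the 30 genes (63.3%), against 32.7% of the 21000 protein-coding genes. A peak within 50 kb of a TSS was found for 21 of the 30 (70.0%), against 56.1% of protein-coding genes, and a peak within 1 kb for 15 (50%), against 28.1%. By family, the nearest-gene rule gave 12 of 17 Klf genes, 6 of 9 Sp genes and 1 of 4 Egr genes. The 50 kb rule gave 11 of 17 Klf, 8 of 9 Sp and 2 of 4 Egr genes. Among transcription factor families counted the same way, 18 of 44 forkhead genes (40.9%) and 6 of 7 AP-1 genes (85.7%) were the nearest gene of a peak. These are counts of genes with no test between families.

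**Figure D2:**
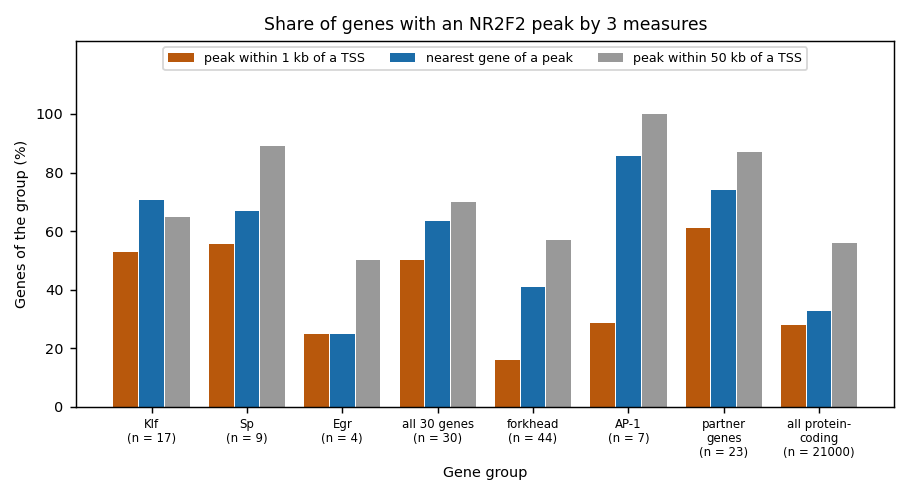
Percentage of the genes of each group with a peak within 1 kb of a TSS (orange), that were the nearest gene of a peak (blue) and with a peak within 50 kb of a TSS (grey), with the number of genes under each group. The 3 bars of all 30 genes reach 50%, 63.3% and 70.0%, and those of all protein-coding genes 28.1%, 32.7% and 56.1%.

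Within the families the glutamine-rich Sp factors were the most completely covered group, with a peak within 1 kb upstream of a TSS at each of Sp1, Sp2, Sp3 and Sp4 (4 of 4). Of the Klf activators, 5 of 6 were the nearest gene of a peak, as were 2 of 3 CtBP-binding and 4 of 6 Sin3-binding Klf repressors. Among all protein-coding genes 32.7% were. By the 50 kb rule the counts were 5 of 6, 1 of 3 and 4 of 6, against 56.1% of protein-coding genes. The short Sp factors differed between the rules, since 2 of 5 were nearest genes and 4 of 5 had a peak within 50 kb. Klf16, Sp5, Sp6 and Egr2 were bound only by the 50 kb rule, that is, another gene lay closer to the peak. Klf10 and Klf12 were bound only by the nearest-gene rule, over distances of 83.6 and 135.9 kb.

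The strongest signal lay at a peak counted for Egr2 by the 50 kb rule alone. The next Egr peak, at Egr1, had a summed ChIP count of 139. That was below the strongest peaks of Sp2 (159), Klf4 (154) and Klf16 (143). Egr2, also called Krox20, a regulator of hindbrain patterning and of myelination, had 1 peak within 50 kb (chr10:67549353-67549652), outside any gene and 11.4 kb downstream of its nearest TSS. The nearest gene was Ado, which encodes the thiol oxidase cysteamine dioxygenase, at 398 bp upstream of its TSS. The input held 4 counts there, replicate 1 held 236 and replicate 2 held 198. By summed ChIP count this peak ranked 9 of 10069. The ratio of raw counts was 59.0 in replicate 1 (exact 95% interval 22.7 to 218.3, counting error only) and 49.5 in replicate 2 (19.0 to 183.5).

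A test against the typical ChIP to input ratio of all peaks, which does not need the unknown depths, put the Egr2 peak above it by 3.43 ± 0.44 on the log2 scale (SE, edgeR quasi-likelihood test, adjusted p = 1.08e-10). The exact intervals of the raw ratios given above, which rest on few input counts, are wider than this standard error implies. The Egr2 peak was the only 1 of the 42 family peaks called above, against 1.53% of all peaks. No family peak was called below, 0 of 42 against 0.0497% of all peaks. With an unadjusted p under 0.05, edgeR placed 4 family peaks above and 1 below, together 11.9% of the 42 against 10.4% of all peaks. DESeq2 placed 1 above and 0 below (2.38% against 2.11% of all peaks), and it gave an adjusted p to only 4 of the 42. Whether the site acts on Egr2, on Ado or on neither cannot be told from binding counts.

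Egr1, the immediate early factor that also drives the pituitary Lhb gene, had 3 peaks on chromosome 18. The strongest (chr18:34860269-34860568) lay 639 bp upstream of the TSS with 6 input counts and 73 and 66 ChIP counts, which was 1.21 ± 0.55 above the typical peak on the log2 scale (SE, edgeR adjusted p = 0.382). A peak 26.3 kb downstream of the Egr1 TSS and outside any gene had 12 input counts and 59 and 42 ChIP counts. The remaining peak overlapped the TSS of the neighbouring gene Reep2, 20.3 kb upstream of Egr1, with 4 input counts and 45 and 34 ChIP counts. The replicates thus stood 3.40 to 11.3 times above the input at the Egr1 peaks, with 0.5 added to each count.

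Egr3 and Egr4 had no peak by either rule. Egr3, needed for muscle spindles, had its nearest peak 75.7 kb away, at Ccar2, with 9 input counts and 67 and 41 ChIP counts. Egr4, whose loss impairs male fertility in mice, had its nearest peak 61.7 kb away, at Pradc1, with 4 input counts and 71 and 68 ChIP counts. Each of these peaks had the named neighbour as its nearest gene.

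**Figure D3:**
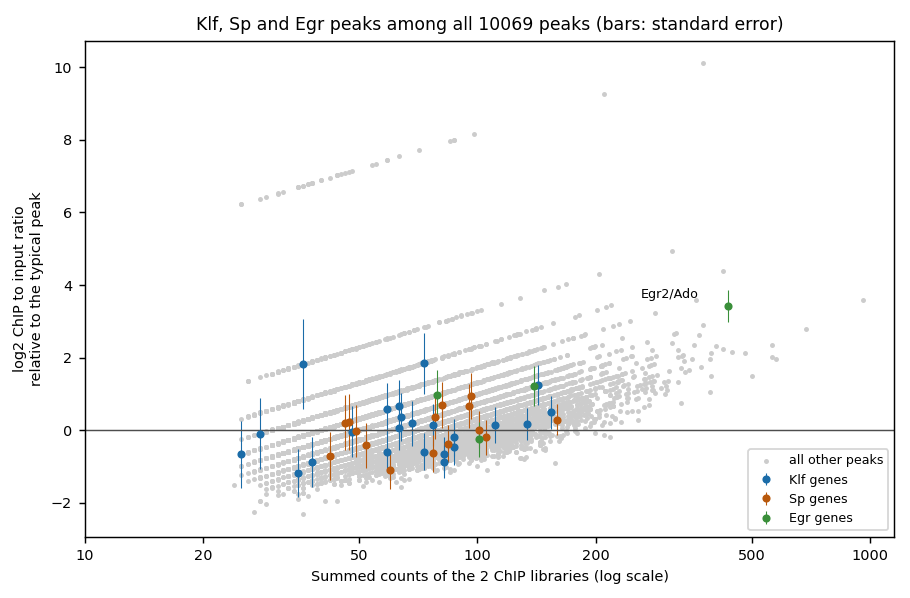
Summed counts of the 2 ChIP libraries (log axis) against the log2 ChIP to input ratio relative to the typical peak, for the 42 peaks of Klf (blue), Sp (orange) and Egr (green) genes with their standard errors and for all other peaks (grey), where the uppermost band holds peaks with 0 input counts. Among the coloured points the Egr2 peak lies apart at 434 summed counts and a log2 ratio of 3.43, and the rest lie within the grey cloud.

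The glutamine-rich Sp genes, whose products are broadly expressed activators and, for Sp3, also a repressor, held the next highest summed ChIP count at a single peak. At Sp2 the peak (chr11:96977841-96978140) lay in an intron of the longest transcript, 153 bp upstream of an alternative TSS. It had 13 input counts and 96 and 63 ChIP counts, the highest sum of any Sp or Klf peak. Its log2 ratio was 0.29 ± 0.43 relative to the typical peak (SE, edgeR adjusted p = 0.908), a value within its error of 0. The same peak was 35.4 kb upstream of Sp6 and counted for that gene too.

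Sp1, the founding member of the family, had 3 peaks, all upstream. The one 709 bp from its TSS had 12 input counts and 68 and 37 ChIP counts. A further peak at 6.4 kb had 6 input counts and 51 and 27 ChIP counts, and the third, at 28.7 kb, had 11 input counts and 47 and 37 ChIP counts. The third lay nearer to Sp7. Replicate 1 held more counts than replicate 2 at each of them, by differences that did not pass the test between replicates given below.

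Sp3 was the nearest gene of 4 peaks, which formed a series upstream of the gene. The nearest to it lay 32 bp from the TSS, in an intron of the antisense gene Sp3os, with 6 input counts and 61 and 34 ChIP counts. The strongest by a narrow margin lay 57.8 kb upstream with 5 input counts and 48 ChIP counts in each replicate. Further upstream, the peak at 85.9 kb had 4 input counts and 28 and 19 ChIP counts, and that at 109.7 kb had 7 input counts and 18 and 24 ChIP counts. The outermost peak thus had the weakest ChIP signal of the 4.

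Sp4, which acts mainly in neurons, had 1 peak 563 bp upstream of its TSS. It had 5 input counts and 45 and 36 ChIP counts.

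The short Sp genes, developmental regulators, were bound mostly from a distance. Sp8, a limb bud and forebrain factor, was the exception, with a peak 235 bp upstream of one of its TSSs and in an intron of its longer transcript. This peak, whose sequence is printed above, had 7 input counts and 26 ChIP counts in each replicate. Sp7, the bone factor osterix, had no peak closer than 10.3 kb but 6 within 50 kb. Of these, 3 were the Sp1 peaks already described, since the Sp1 and Sp7 TSSs lie 39.3 kb apart, and the one at 10.3 kb was the only one nearest to Sp7.

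The other Sp7 peaks lay over neighbouring genes. The peak in a coding exon of Aaas, 36 bp from the Aaas TSS, had 12 input counts and 47 and 30 ChIP counts, and held the NR2F2 motif. At the Myg1 TSS there were 10 input counts and 60 and 41 ChIP counts, and at the Pfdn5 TSS 13 input counts and 35 and 25 ChIP counts. Each of these genes was closer to its peak than Sp7 was.

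Sp5, a target of Wnt signalling, and Sp6, which acts in tooth development, were bound by the distance rule alone. The Sp5 peak lay in a coding exon of Erich2, 145 bp from the Erich2 TSS and 34.0 kb downstream of the Sp5 TSS. This peak had 5 input counts and 23 and 26 ChIP counts. Beside the peak shared with Sp2, Sp6 had a peak at the Mrpl10 TSS, 22.8 kb away, with 4 input counts and 23 ChIP counts in each replicate. Sp9, the closest relative of Sp8, was the unbound gene nearest to the limit, with a peak at 57.7 kb near Ola1 that had 6 input counts and 42 and 29 ChIP counts. On the inner side of the limit, Klf16 was the farthest, at 45.7 kb.

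Among the Klf activators, Klf4, a pluripotency and epithelial factor that is also known from Sertoli cells and round spermatids, was the nearest gene of 4 peaks, all upstream and outside any gene. The strongest (chr4:55650958-55651257) lay 118.5 kb from the TSS with 11 input counts and 82 and 72 ChIP counts. Its log2 ratio was 0.49 ± 0.45 relative to the typical peak (SE, edgeR adjusted p = 0.822). The promoter-side peak, 764 bp upstream, had 5 input counts and 37 and 27 ChIP counts. The last peaks, 580.6 and 581.4 kb upstream and 478 bp apart, had 5 and 4 input counts, 17 and 28 counts in replicate 1 and 31 counts each in replicate 2.

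Klf7, a neuronal factor, and Klf6, a ubiquitous one, each had a peak close to the TSS. That of Klf7, 638 bp upstream, had 7 input counts and 42 and 35 ChIP counts, and that of Klf6, 251 bp upstream, had 6 input counts and 32 and 36 ChIP counts. An intron of Klf7 held a further peak with 1 input count and 18 ChIP counts in each replicate, a raw ratio of 18.0 with an exact 95% interval of 2.84 to 750.0. A weak peak 36.7 kb upstream of Klf6 had 8 input counts and 22 and 13 ChIP counts, and lay nearer to 1700016G22Rik. The Klf7 intron peak shows how little a single input count fixes the ratio.

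Klf5, a growth factor-responsive activator of epithelia, had the peak closest to the TSS of a family member, 8 bp upstream, and it was weak, with 7 input counts and 24 and 14 ChIP counts. Klf1, the erythroid activator of globin genes, had a peak in its own coding exon, 1.2 kb downstream of the TSS, with 6 input counts and 41 and 22 ChIP counts. A second Klf1 peak, in the 5′ UTR of Farsa 44.8 kb upstream, had 15 input counts, the most of any family peak, and 46 and 36 ChIP counts. Klf2, the shear stress factor of endothelium, was unbound, with the nearest peak 78.7 kb away near Ap1m1 (19 input counts and 78 and 66 ChIP counts).

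Of the CtBP-binding repressors, Klf3 had 1 peak 455 bp upstream of its TSS with 10 input counts and 62 and 49 ChIP counts. Klf12, which represses the AP-2 alpha gene, was the nearest gene of 1 peak 135.9 kb upstream, with 13 input counts and 42 and 40 ChIP counts. Klf8 was the gene farthest from any peak, at 900.9 kb.

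The Sin3-binding repressors included genes that respond to hormones and TGF-beta. Klf9, a glucocorticoid and thyroid hormone target, had a peak 101 bp upstream of its TSS with 4 input counts and 32 and 31 ChIP counts. The weakest family peak, 83.6 kb upstream of the same gene, had 4 input counts and 13 and 12 ChIP counts, and its log2 ratio was -0.67 ± 0.92 relative to the typical peak (SE, edgeR adjusted p = 0.900). Klf10, a TGF-beta-inducible gene, was the nearest gene of 1 peak at 83.6 kb, with 12 input counts and 59 and 28 ChIP counts. At the Klf10 peak replicate 1 was the higher.

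Klf11, another TGF-beta-inducible gene, had 3 peaks. One began 24 bp downstream of the TSS and its midpoint lay in the coding part of an exon, with 2 input counts and 40 and 33 ChIP counts. This gave raw ratios of 20 (exact 95% interval 5.19 to 170.8) and 16.5 (4.22 to 141.9). Separated from it by 231 bp, on the other side of the TSS, a peak had 10 input counts and 48 and 39 ChIP counts, so the ChIP counts of the pair were alike and the input counts were not. The third, 8.7 kb upstream, had 11 input counts and 45 and 28 ChIP counts.

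Klf14, a maternally expressed metabolic regulator, had a peak in its coding exon 801 bp from the TSS with 9 input counts and 31 and 28 ChIP counts. The Klf14 peak printed above, 11.7 kb downstream of the TSS and outside any gene, had 3 input counts and 16 and 12 ChIP counts. Klf16 was bound through a peak in an intron of Csnk1g2, the gene for a casein kinase, 172 bp from the Csnk1g2 TSS. This peak had 6 input counts and 77 and 66 ChIP counts, which was 1.25 ± 0.55 above the typical peak on the log2 scale (SE, edgeR adjusted p = 0.339). Klf13, a regulator of lymphocyte chemokines, was unbound, with the nearest peak 348.4 kb away.

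Klf15, a regulator of glucose and amino acid metabolism, had 1 peak in its intron, 340 bp downstream of the TSS (chr6:90462916-90463215). It had 12 input counts, and here replicate 2 with 81 counts stood above replicate 1 with 53. The log2 ratio relative to the typical peak was 0.17 ± 0.45 (SE, edgeR adjusted p = 0.955), and it was 0.55 without replicate 1 and -0.29 without replicate 2. The exact two-sided binomial test between the replicates gave an unadjusted p of 9.36e-04 and an adjusted p of 0.174, the lowest of the family. Klf17, first described in germ cells, was unbound, with the nearest peak at 64.4 kb near Slc6a9 (12 input counts and 56 and 50 ChIP counts).

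**Figure D4:**
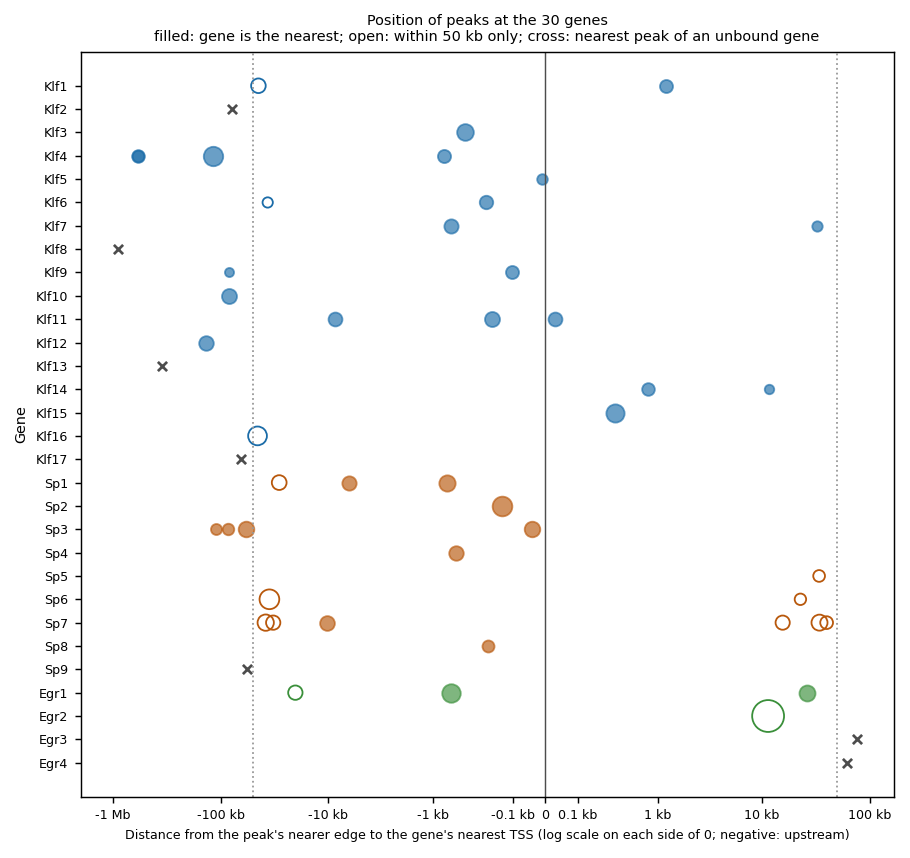
Distance from each peak's nearer edge to the nearest TSS of each of the 30 genes (log scale on either side of 0, negative upstream), with the point area rising with the summed ChIP count. Filled points mark peaks nearest to that gene, open points peaks within 50 kb (dotted lines) that lie nearer to another gene, and crosses the nearest peak of the 7 unbound genes. A column of filled points lies within 1 kb to the left of the TSS, and the largest open circle is the Egr2 peak.

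The peaks close to these genes lay beside the TSS and not on it. Of 16 peaks within 1 kb of the TSS of a family member that was their nearest gene, 13 lay upstream, 3 downstream and 0 overlapped the TSS, which allows a share of up to 18.8%. Their median distance was 295.5 bp. Among the 5840 peaks of the whole set within 1 kb of a TSS, 41.8% overlapped it, 20.2% lay upstream and 38.0% downstream, at a median of 32.0 bp. With predicted RefSeq models added to the curated ones, the upstream peak of Klf7 and the distal peak of Klf12 overlapped a predicted TSS. Other peaks of the family reached the 50 kb rule at the TSS of a neighbour, such as Farsa, Reep2, Myg1, Pfdn5 and Mrpl10. The peaks at Aaas and Erich2 lay 36 and 145 bp from the TSSs of those genes.

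The ratio of ChIP to input across the family was then set beside that of all peaks. The median ratio of ChIP to input counts, with 0.5 added to each, averaged 4.93 ± 0.589 (SD, n = 2) over the ChIP replicates, with 5.35 in replicate 1 and 4.52 in replicate 2. For all peaks the average was 4.75 ± 0.505, with 5.11 and 4.39, so the family median was slightly higher in each replicate. The spread between the replicates follows their totals and is no measure of error for this difference, which was not tested. When equal depth was assumed, 32 of the 42 family peaks (76.2%) were above the input by edgeR's quasi-likelihood test, against 80.7% of all peaks. The other 10 peaks, at Klf1, Klf4, Klf5, Klf6, Klf10, Klf11, Sp1 (2 peaks) and Sp7 (2 peaks), had edgeR adjusted p-values of 0.0603 to 0.154. That fit took the ChIP replicates as equally deep. With the replicates scaled to each other, edgeR called 41 of the 42 (97.6%) and 97.9% of all peaks. If the ChIP was assumed 2 times deeper than the input, this test called 0 of the 42 and 0 of all peaks, although 16 of the 42 (38.1%) and 39.0% of all peaks had an unadjusted p under 0.05.

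By subgroup, the median summed ChIP count was 63.0 at the 11 peaks of Klf activators, 73.0 at the 9 peaks of Sin3-binding Klf repressors and 96.5 at the 2 peaks of CtBP-binding ones. The 9 peaks of the glutamine-rich Sp genes had a median of 84.0, the 10 of the short Sp genes 77.5, with 4 peaks counted in both, and the 4 peaks of Egr genes 120.0. Over all peaks the median was 68.0. These values describe small groups of peaks that share neighbours and were not tested.

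The replicates were also set against each other at each peak. Replicate 1 was higher at 32 of the 42 peaks, replicate 2 at 6, and they were equal at 4, and over all peaks replicate 1 was higher at 6975 and replicate 2 at 2710. An exact two-sided binomial test against the ratio of the totals called 0 of the 42 peaks different, against 0.0993% of all peaks. An unadjusted p under 0.05 was reached by 4 of the 42 (9.52%) and by 8.83% of all peaks. This test compares the libraries and covers counting error.

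The motifs of NR2F2 and of the factors themselves were counted on both strands of the 300 bp peaks. The NR2F2 motif AGAGGTCA or AGGGGTCA was in 3 of the 42 peaks (7.14%), those of Klf14, Sp8 and Aaas, and in 10.5% of all placed peaks. Its core, AGGTCA or GGGTCA, which is part of every such match, was in 24 (57.1%) and in 58.9% of all peaks. Only the Egr2 peak held 4 cores (2.38% of the family peaks), and 2.24% of all peaks held 4 or more. Among peaks over 1 kb from any TSS the NR2F2 motif was in 1 of 17 family peaks (5.88%) and in 16.4% of all such peaks, and within 1 kb of a TSS it was in 2 of 25 (8%) and in 6.18%.

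The GC box GGGCGG was in 21 of the 42 peaks (50%), against 39.5% of all peaks. Within 1 kb of a TSS of any gene it was in 16 of 25 family peaks (64.0%) and in 57.4% of all such peaks, and farther away in 5 of 17 (29.4%) and in 14.9%. The CACCC box CCACCC was in 19 of 42 (45.2%) and in 33.8% of all peaks. It was in 10 of the 25 family peaks within 1 kb of a TSS (40%, against 37.2% of all such peaks) and in 9 of the 17 farther away (52.9%, against 29.2%). The Egr motif GCGTGGG was in 3 of 42 (7.14%), at Klf11, Klf15 and Sp3, and in 8.53% of all peaks. The median GC content was 63.0% at family peaks and 60.7% at all peaks, and its part in these shares was not tested.

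Genes that work with these factors were counted from a list of 23, made of the inducers of Egr genes (Srf, the Elk and Mrtf factors), the Mef2 factors and their kinase Mapk7, corepressors and coactivators of Klf, Sp and Egr factors, the ubiquitin ligase genes Fbxw7 and Wwp1, and Wt1, a related zinc finger gene. Of the 23, 17 (73.9%) were the nearest gene of a peak and 20 (87.0%) had a peak within 50 kb, against 32.7% and 56.1% of all protein-coding genes. The 17 genes had 22 peaks, of which 16 (72.7%) were above the input at equal depth by edgeR, against 80.7% of all peaks. The difference between these shares was not tested. By edgeR, 0 of the 22 were above the typical ratio and 0 below it, against 1.53% and 0.0497% of all peaks, and at an unadjusted p under 0.05 there was 1 above and 1 below (4.55% each), against 7.89% and 2.55% of all peaks. DESeq2 gave none of these peaks an adjusted p. Wt1, Mef2a and Sin3b had no peak by either rule.

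The 4 strongest partner peaks lay within 1 kb of the TSS, and the next, 30953 bp upstream of Ep300, did not. Ctbp2, a corepressor that binds Klf3, Klf8 and Klf12, had a peak 687 bp upstream of its TSS with 5 input counts and 69 and 66 ChIP counts. Mapk7, which encodes the kinase ERK5 that acts upstream of Klf2 and Klf4, had one 340 bp downstream with 16 input counts and 60 and 50 ChIP counts. Sin3a, the corepressor of the Sin3-binding Klf group, had 5 input counts and 61 and 48 ChIP counts at 146 bp downstream. Srf, the serum response factor of the Egr promoters, had 5 input counts and 63 and 39 ChIP counts at 389 bp upstream. In all of these the ChIP counts were within the range of the family's own peaks.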

How the data were processed

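ChIP-seq of NR2F2 was performed for the authors by Active Motif on pooled E14.5 testes, with 2 ChIP libraries and 1 input. Single-end reads were trimmed with Trim Galore 0.6.7, mapped to mm10 with Bowtie2, kept above a mapping quality limit and stripped of duplicates (Picard 1.110), and the ChIP replicates were merged before peaks were called with HOMER 4.11.1, resized to 300 bp and cleared of blacklisted regions. The deposited values are unnormalised read counts, 1 file per library, in which the authors counted reads over each peak. Since the peaks were called on the same ChIP reads, their ChIP counts are selected to be high, and duplicate removal limits how high a count can rise. The counting tool and its overlap rule are not given in the sources used here.

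Peaks were assigned with 45756 curated RefSeq transcripts of GRCm38 (26180 genes). Contigs outside the chromosomes held 5 peaks, which have no gene here. Intron and exon refer to the midpoint of a peak. The quasi-likelihood test of edgeR 4.0.16 (R 4.3.3, limma 3.58.1) was fitted to all 10069 peaks and all 3 libraries, once with the libraries taken as equally deep and once with TMM factors, with Benjamini-Hochberg adjustment over all peaks and a threshold of 0.05. The single input is assumed to vary like the ChIP libraries. The standard error is the log2 fold change divided by the square root of F. DESeq2 1.42.0 was an alternative. Replicates were compared by exact two-sided binomial tests, and ratio intervals are exact (Clopper-Pearson, 95%), with scipy 1.17.1. Intervals and the limit of 3 counts behind a 0 cover counting error only. The study describes the ChIP libraries as independent experiments and biological replicates from pooled testes. Whether each had its own pool of animals is not stated there or in the labels, and p-values measure the spread between these libraries. The scripts were tested on simulated counts.

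All 30 genes are named, each bound gene with its strongest peak. Log2 ratios are given for the 6 peaks with the highest summed ChIP count, the weakest, and any past the threshold against the typical peak. The members and the lists of genes and motifs were chosen with earlier results of these data known.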

Additional observations from a re-analysis of the deposited data

How the results depend on the processing

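The input, with a median of 6.5 counts at the family peaks, limits every ratio, and the library totals outside peaks were not used here, so calls above the input rest on the assumed depths. Of the 42 family peaks, 32 were above the input at equal depth by edgeR (8122 of all 10069 peaks). This count was 0 with ChIP assumed 2 times deeper (0 of all peaks) and 13 with a minimum of 10 input counts, which left 15 family peaks to test (2149 of 2427 of all peaks). It was 26 with DESeq2, which gave 3 family peaks no adjusted p (6146 of all peaks), 41 with robust fitting (9816), 41 with the replicates scaled to each other (9853), and 42 with ChIP 2 times shallower (9858). The share of family peaks called thus moved with that of all peaks. The single family peak above the typical ratio, at Egr2, was called in every fit that tested it, with adjusted p-values from 1.08e-10 (edgeR, also with robust fitting) to 0.0134 (DESeq2, which gave 38 of the 42 no adjusted p) and log2 ratios of 3.41 and 3.44 without replicate 1 and without replicate 2. With a minimum of 10 input counts the count above was 0, since the peak has 4 input counts and was not tested. Scaling by library totals without TMM moved the median log2 ratio of all peaks from 0.02 to -0.10. The median ChIP to input ratio of 4.93 became 3.40 with 5 added to each count and 3.94 with a minimum of 10 input counts, and it ranged from 4.52 to 5.35 when either ChIP replicate was left out. The number of genes nearest to a peak was 19, and 17 with all RefSeq models. The number with a peak within 50 kb was 21, and it was 16 at 10 kb, 18 at 20 kb, 27 at 100 kb and 22 with all RefSeq models. Midpoint distances left both counts at 19 and 21. Of all protein-coding genes, 32.7% were nearest to a peak and 56.1% had 1 within 50 kb at the main settings. Their shares at the other limits and models are not given here, so the family counts there cannot be set against them. No paired analysis was possible because a single input served both ChIP libraries and its label carries no replicate number.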
